A study of Mus musculus with 7 samples.

Results

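The early response genes described here are the EGR transcription factors Egr1, Egr2 and Egr3, the NR4A nuclear receptors Nr4a1, Nr4a2 and Nr4a3, and the immediate early response genes Ier2 and Ier3. They were chosen by gene symbol, with the lower Egr1 level of allograft libraries already known from this same contrast, and they are 8 of the 55335 gene identifiers in the deposited tables. All 8 had enough counts to be among the 17015 genes tested. Since the choice used the contrast between the groups, the levels and fold changes of the 8 genes are a description of these libraries and support nothing beyond them.

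The cells were group 2 innate lymphoid cells (ILC2s), tissue lymphocytes that make type 2 cytokines without an antigen receptor, taken from mouse hearts. The 3 naive libraries (N1, N2 and N3) came from naive hearts, whose strain the labels do not give. The 4 allograft libraries (A1 to A4) came from Balb/C hearts harvested 7 days after transplantation into C57BL/6 recipients, a model that rejects the graft acutely. No group carried a named transgene, deletion or drug, the labels do not separate ILC2s of the donor heart from those that entered from the recipient, and no isograft group entered the comparison, so surgery and alloreactivity cannot be told apart. Hearts were dissociated mechanically and with enzymes, cells were sorted as CD45+ Lineage- ST2+, and each library pooled the cells of 4 to 7 hearts. RNA was read after these steps, so transcripts made during them and those already made in the heart cannot be told apart. Full-length cDNA was amplified from bulk RNA, so fewer cells of a type and less RNA per cell cannot be told apart.

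Immediate early genes are transcribed within minutes of a stimulus from factors that already sit in the cell, without new protein synthesis. EGR proteins are zinc finger factors that bind GC-rich sites; Egr1 is switched on by ERK signalling through serum response factor, and Egr2 and Egr3 are calcium and NFAT targets in lymphocytes, where they restrain antigen receptor responses. NR4A proteins are orphan nuclear receptors, whose genes respond to calcium, cAMP and antigen receptor signals through CREB and MEF2, and which are tied to tolerance and exhaustion in T cells. Ier2 encodes a small nuclear protein, and Ier3 a stress-induced protein that alters cell survival and ERK signalling.

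The NR4A promoters are shown because all 3 genes were highest in N3 and lowest in N2. Other immediate early genes were also highest in N3. In the RefSeq promoter table (GRCm38.p6), which had entries for 5 of the 8 genes (Egr2, Nr4a1, Nr4a2, Nr4a3 and Ier3), each NR4A entry held 4 copies of the 5-base core of the cAMP response element (CRE), TGACG or CGTCA on the strand shown, within 250 bases upstream of the RefSeq start. The sequences run 5′ to 3′ on the gene's strand, the capitals mark these cores, and the Nr4a3 sequence stops after 98 bases, where the first annotated exon begins, which leaves 3 of its 4 cores. The Nr4a1 sequence lies in an intron of a longer Nr4a1 transcript in GENCODE M21.

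Nr4a1, chr15:101266596-101266845, plus strand: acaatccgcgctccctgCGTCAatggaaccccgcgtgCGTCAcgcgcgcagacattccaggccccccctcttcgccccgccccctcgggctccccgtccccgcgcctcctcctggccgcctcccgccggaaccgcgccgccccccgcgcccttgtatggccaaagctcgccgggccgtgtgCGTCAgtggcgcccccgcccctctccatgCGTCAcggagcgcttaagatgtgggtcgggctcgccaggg
Nr4a2, chr2:57124004-57124253, minus strand: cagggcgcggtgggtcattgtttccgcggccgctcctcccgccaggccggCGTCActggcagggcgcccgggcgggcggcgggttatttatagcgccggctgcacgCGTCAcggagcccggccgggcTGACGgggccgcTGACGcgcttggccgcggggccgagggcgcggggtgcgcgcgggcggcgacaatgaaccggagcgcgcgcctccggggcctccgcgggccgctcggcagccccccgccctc
Nr4a3, chr4:48045055-48045152, plus strand: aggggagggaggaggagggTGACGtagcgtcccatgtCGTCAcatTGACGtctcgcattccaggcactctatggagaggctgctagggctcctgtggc

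The Nr4a1 cores began at -233, -213, -69 and -40 from the start, the Nr4a2 cores at -200, -144, -123 and -111, and the Nr4a3 cores at -231, -213, -205 and -147. Of all 32851 windows of 250 bases in the table, 17.8% held at least 1 core on either strand and 0.137% (45 windows) held at least 4. The 3 windows are GC-rich, at 74.4% (Nr4a1), 80.0% (Nr4a2) and 63.6% (Nr4a3) against a median of 52.4% over all windows, and among the 9178 windows with at least 60% GC, 34 (0.370%) held at least 4. The full palindromic element TGACGTCA, present in 1.55% of windows, was not in these letters. A match to the EGR site GCGNGGGCG, on either strand, lay in the Nr4a1 and Nr4a2 windows and in 4.70% of all. Some Egr2 entries also held a TGACG and a CGTCA, for example at -111 and -55, and Ier2 had no entry to compare. These matches describe the letters and say nothing of binding. Their part in the profiles of these genes was not tested.

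Totals ran from 29107326 to 53044907 counts per library, so that a count of 0 allows at most 3 counts, or 0.0566 to 0.103 counts per 1000000 (CPM); these limits and all counting intervals cover counting error only, and the libraries carried no molecular identifiers. N2 went against its cell label. Its 12 ILC2 markers summed to 199 CPM, against 6312 in N1, 8293 in N3 and 7074 to 7666 in the allografts, and its level of Il1rl1, which encodes the sorted surface protein ST2, was 6.79 CPM against 343 to 756 elsewhere. All 12 kidney tubule markers were detected in N2 and summed to 11151 CPM, against 96.2 in N1, 384 in N3 and 92.7 to 135 in the allografts, and 26.5% of its counts were mitochondrial against 2.04% to 3.11% elsewhere. N1 and N3 had counts for fewer genes (15820 and 13864) than N2 (20254) or the allografts (19235 to 21354). The fold changes of the 8 genes are therefore given also without N2 and without N3.

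**Figure D1:**
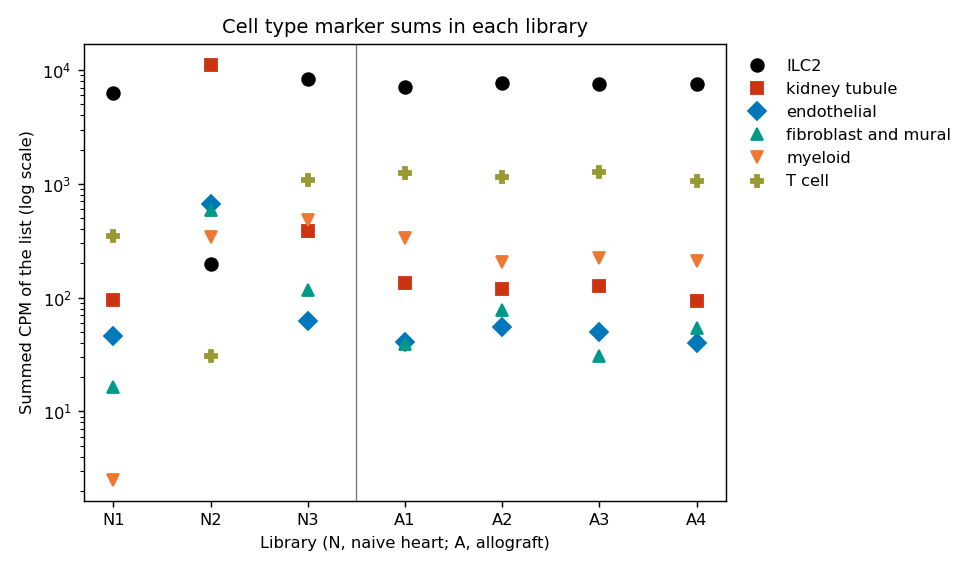
Summed CPM of 6 cell type marker lists (log scale) in the 3 naive (N) and 4 allograft (A) libraries, 1 point per list and library. In N2 the ILC2 sum is 199 and the kidney tubule sum 11151, while the ILC2 sum of the other 6 libraries lies between 6312 and 8293.

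The EGR genes split. Egr1 was lower in every allograft library than in every naive library, Egr3 was higher in every allograft library, and Egr2 overlapped between the groups because N2 carried it and the other naive libraries had no count. Egr1 (ENSMUSG00000038418, chr18:34859823-34864984, GRCm38) stood at 153 CPM in N1, 894 in N2 and 501 in N3, and at 107, 118, 94.7 and 134 CPM in A1 to A4. The allografts lie close together at 114 ± 16.8 CPM (SD, n = 4), and the naive libraries spread around 516 ± 371 CPM (SD, n = 3). N1 was 1.35-fold above the allograft mean, N3 4.41-fold and N2 7.87-fold, so the size of the difference depends on which naive library is read. The fitted log2 fold change, allograft over naive, was -2.56 (SE 0.656), with an adjusted p of 0.197 by edgeR's quasi-likelihood test. That test gives no SE of its own. Each SE here is the absolute log2 fold change over the square root of its F statistic, a rough guide where naive counts are 0. It was -1.59 (SE 0.450) without N2, -2.69 (SE 0.726) without N3, and -0.43 without both, where N1 alone stands for naive hearts.

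Egr3 (ENSMUSG00000033730, chr14:70077203-70082614), a factor that acts beside Egr2 in lymphocytes, was at 4.22, 6.45, 7.32 and 6.46 CPM in the allografts. In naive hearts it stood at 0.0377 CPM in N1 (2 counts), 2.13 in N2 (97 counts) and 0 in N3. No naive library reached the lowest allograft. The log2 fold change was 2.51 (SE 1.94) over all libraries, 8.04 (SE 1.44) without N2 and 1.95 (SE 1.51) without N3. Over N1 and N3 together 2 counts faced 882 in the allografts, a ratio of 291 after scaling by library totals, with a 95% exact counting interval of 80.3 to 2407.

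Egr2 (ENSMUSG00000037868, chr10:67535475-67542188) was at 0 counts in N1 and N3 and at 4.04 CPM (184 counts) in N2. The allografts had 2.59, 2.31, 0.685 and 2.44 CPM (114, 75, 28 and 71 counts). N2 is thus the highest library of all 7, and A3 the lowest of the allografts. With all libraries the log2 fold change was -0.00 (SE 2.17). Without N2 the allograft mean was at least 32.0-fold higher than the naive libraries, with their 0 counts set to 3 per library; the fitted value of 9.33 depends on the prior count and is no bound. The zeros of Egr2 and Egr3 fell in the 2 libraries with the fewest genes detected, and the part of that in these values was not tested.

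Among Egr1, Egr2 and Egr3, Egr1 made up nearly all of the transcript level in both groups, read in FPKM. FPKM divides the fragments by gene length and library size, the scale that allows levels of different genes to be compared. The Egr1 share of the FPKM summed over Egr1, Egr2 and Egr3 was 99.98% in N1, 99.2% in N2 and 100% in N3. It was 93.3%, 92.5%, 91.9% and 93.2% in the allografts. The groups do not overlap. Egr3 took 5.16% ± 1.49 (SD, n = 4) and Egr2 2.10% ± 0.898 of the allograft sum. The sum itself was 29.8, 184 and 98.5 FPKM in N1, N2 and N3 and 19.9 to 27.7 FPKM in the allografts. Egr4, a further EGR gene, is outside this sum. It was at 0.662 FPKM in N1, 0 in N2 and N3, and 1.34, 1.76, 0.410 and 0.773 in A1 to A4. In every allograft Egr4 was above Egr2, so counting it would lower the Egr1 shares there and in N1.

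**Figure D2:**
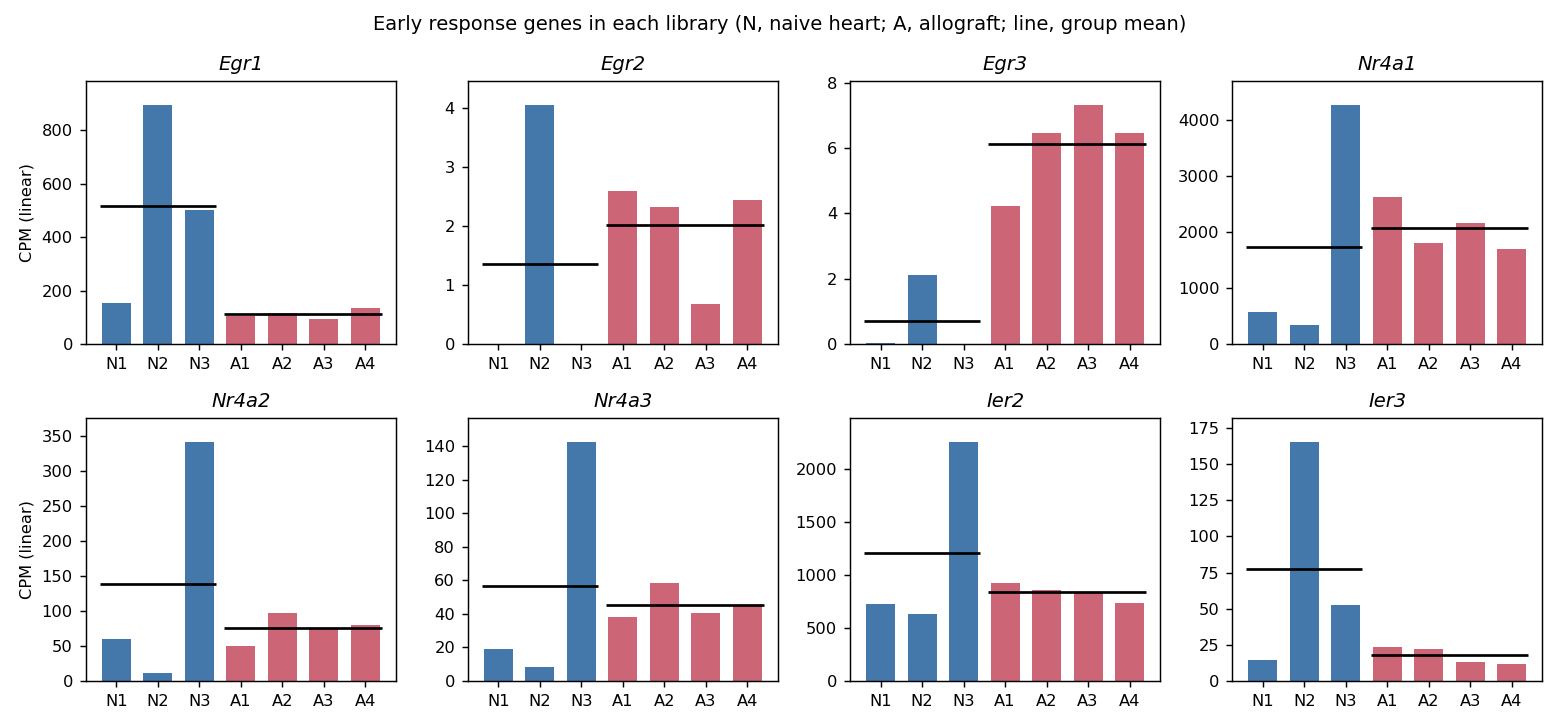
CPM (linear axes, each starting at 0) of the 8 early response genes in the 3 naive (N, blue) and 4 allograft (A, red) libraries; bars are single libraries and lines group means. N2 is highest for Egr1, Egr2 and Ier3, N3 for the 3 NR4A genes and Ier2, and the allografts lie close together beside the naive libraries.

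The NR4A genes did not separate the groups, since N3 lay above and N1 and N2 mostly below the allografts. Nr4a1 (Nur77; ENSMUSG00000023034, chr15:101254269-101274795), a reporter gene of antigen receptor signalling in T cells, was at 565 CPM in N1, 343 in N2 and 4260 in N3. The allografts had 2615, 1799, 2155 and 1689 CPM, with a mean of 2064 ± 418 (SD, n = 4). N3 was 2.06-fold above that mean, while the mean was 3.65-fold above N1 and 6.01-fold above N2. The log2 fold change was 0.17 (SE 0.806) over all libraries, -0.29 without N2 and 1.96 (SE 0.388) without N3.

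Nr4a2 (Nurr1; ENSMUSG00000026826, chr2:57106830-57124003) was at 60.4, 11.6 and 341 CPM in N1, N2 and N3 and at 50.1, 97.2, 73.3 and 80.2 CPM in the allografts. N1 lay inside the allograft range here, N2 under it and N3 over it. The log2 fold change was -0.95 (SE 0.871), -1.49 without N2 and 0.96 without N3. Nr4a3 (Nor1; ENSMUSG00000028341, chr4:48045153-48086447) stood at 19.1, 8.33 and 143 CPM in the naive libraries and at 38.5, 58.2, 40.6 and 44.9 CPM in the allografts. N1 and N2 were both under its allograft range and N3 was over it. Its log2 fold change was -0.40 (SE 0.817), -0.90 without N2 and 1.54 (SE 0.353) without N3, so that for Nr4a2 and Nr4a3 the sign turned with N3. The fold change of Nr4a1 turned negative without N2, and also without N1 (-0.26), without A1 (-0.0092) and by DESeq2 (-0.0019).

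Nr4a1 was the dominant NR4A receptor in every library, with 92.5% ± 3.02 (SD, n = 3) of the summed NR4A FPKM in naive hearts and 95.5% ± 1.64 (SD, n = 4) in allografts. The sum was 157, 93.7 and 1169 FPKM in N1, N2 and N3 and 441 to 657 FPKM in the allografts. N3 exceeded N2 12.4-fold for Nr4a1, 29.4-fold for Nr4a2 and 17.1-fold for Nr4a3, whereas the highest allograft exceeded the lowest 1.55-fold, 1.94-fold and 1.51-fold.

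Of the immediate early response genes, Ier2 (ENSMUSG00000053560, chr8:84661331-84662852) was at 728, 629 and 2260 CPM in N1, N2 and N3 and at 925, 860, 838 and 737 CPM in the allografts. In CPM, N1 and N2 were slightly under the allografts and N3 was 2.69-fold above their mean. The edgeR fits also scale libraries by TMM, with a factor of 0.724 for N2 against 1.02 to 1.07 elsewhere. On that scale Ier2 in N2 was at -0.041 from its mean log2 CPM, above the allografts (-0.051 to -0.382). The log2 fold change was -0.67 (SE 0.472), -0.89 without N2 and 0.03 without N3. Ier3 (ENSMUSG00000003541, chr17:35821684-35822923) was at 14.5, 166 and 52.3 CPM in the naive libraries and at 23.8, 22.1, 13.3 and 11.9 CPM in the allografts. N2 was 9.32-fold and N3 2.95-fold above the allograft mean, and N1 lay inside the allograft range. The log2 fold change was -2.57 (SE 0.857), -0.97 without N2 and -2.86 without N3. No exon of the 8 genes shared bases with an exon of another gene in GENCODE M21.

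**Figure D3:**
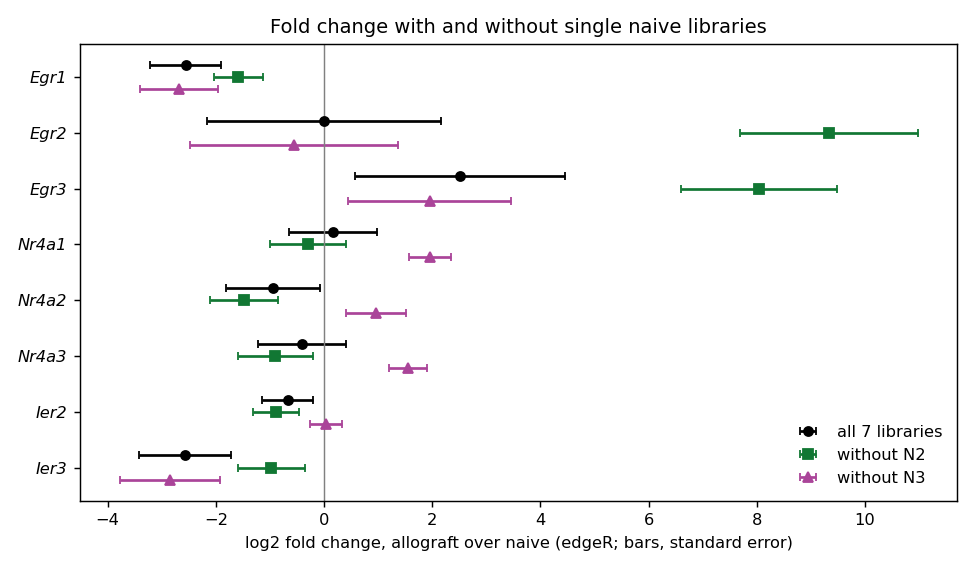
log2 fold change, allograft over naive, of the 8 genes from edgeR (point), fitted on all 7 libraries, without N2 and without N3. Bars are the SE, the absolute log2 fold change over the square root of its F statistic. Egr1 stays below 0 and Egr3 above 0 in the 3 fits, while the NR4A genes lie to the right of 0 only without N3, except Nr4a1, which is also at 0.17 with all libraries.

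Of the 8 genes, 0 were past an adjusted p of 0.05 in the fit of all libraries, where 0.0353% of genes tested were (6 genes), and Egr1 and Ier3 had unadjusted p under 0.05 (0.00509 and 0.0184, edgeR). Without N2, Egr3 was past it (adjusted p = 0.0450, edgeR), against 3.10% of genes. Without N3, 0 of the 8 were, against 0.0372% of genes, with unadjusted p under 0.05 for Egr1, Nr4a1, Nr4a3 and Ier3. With N1 as the lone naive library, assumed to vary like the allografts, Egr2, Egr3 and Nr4a1 were past it, against 13.5% of genes. By DESeq2's Wald test, Egr1 was (adjusted p = 0.0121), against 6.40% of the 19118 genes with an adjusted p. DESeq2 gave no p for Egr2, Nr4a1 and Nr4a3. Egr1 was the member whose groups did not overlap downwards with all libraries, as 2.15% of genes did, and Egr3 upwards, as 12.5% did. Without N2, Egr1 lay below (7.15% of genes) and Egr2 and Egr3 above (21.0%). Without N3, Egr1 lay below (6.68%) and Egr3, Nr4a1, Nr4a3 and Ier2 above (20.9%). These overlaps are read in CPM by library total, and with TMM scaling Ier2 in N2 lay above the allografts. These shares are background, and nothing is read from the counts of genes chosen with the contrast known.

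In the allografts the order of FPKM levels was Nr4a1 (508.8 ± 101, SD, n = 4), Ier2 (475.8 ± 42.8), Egr1 (21.9 ± 3.24), Nr4a2 (16.0 ± 4.19), Ier3 (13.5 ± 4.59), Nr4a3 (6.57 ± 1.29), Egr3 (1.20 ± 0.264) and Egr2 (0.504 ± 0.227). Nr4a1 and Ier2 overlapped, as did Egr1 with Nr4a2 and Nr4a2 with Ier3, and the other neighbours did not. In naive hearts the order of means was Ier2 (701 ± 526, SD, n = 3), Nr4a1 (435 ± 554), Egr1 (104 ± 76.4), Ier3 (62.0 ± 64.1), Nr4a2 (30.0 ± 38.7), Nr4a3 (8.37 ± 11.0), Egr2 (0.362 ± 0.626) and Egr3 (0.149 ± 0.252). There, the single pair of neighbours without overlap was Nr4a3 and Egr2. Without N2, Nr4a2 (43.6 FPKM) stood above Ier3 (26.0) and Egr3 (0.00295) above Egr2 (0). Without N3, Nr4a1 (115) stood close to Egr1 (106). Egr2 and Egr3 were the lowest of the 8 in both groups.

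The naive libraries differed from each other more than the allografts did. In this paragraph log2 CPM is TMM-scaled, as in the edgeR fits. The SD of log2 CPM ran from 0.899 (Ier2) to 3.98 (Egr2) over the naive libraries. Over the allografts it ran from 0.136 (Ier2) to 0.887 (Egr2). Over all genes tested the median SD was 1.56 in naive hearts and 0.439 in allografts, so the wider naive spread was shared by genes at large. Across the 7 libraries, the root mean square (RMS) difference between profiles of log2 CPM, each centred on its own mean, was smallest for Nr4a2 with Nr4a3 (0.410), Nr4a1 with Nr4a3 (0.426) and Egr1 with Ier3 (0.494). It was 1.23 for Egr2 with Egr3 and 3.55 for Egr1 with Egr3. It was 0.770 for Nr4a1 with Nr4a2, 1.17 for Egr1 with Ier2 and 0.788 to 0.927 for the NR4A genes with Ier2. Without N2 or without N3, a comparison added after the values were seen, Nr4a2 with Nr4a3 stayed at 0.405 and 0.412, and Egr1 with Ier3 at 0.499 and 0.503. Egr1 with Nr4a2 moved from 1.97 to 0.380 without N2 and 2.08 without N3. Without N2, Egr1 with Nr4a3 moved from 1.87 to 0.639 and Egr1 with Nr4a1 from 1.95 to 0.927. The distance of Egr1 from the NR4A genes thus shrank without N2, most for Nr4a2 and least for Nr4a1. Nr4a1 with Nr4a2 stood at 0.806 without N2, above Egr1 with Nr4a2, and Ier2 with Ier3 moved from 1.31 to 0.290. Close profiles were thus not particular to the NR4A genes.

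**Figure D4:**
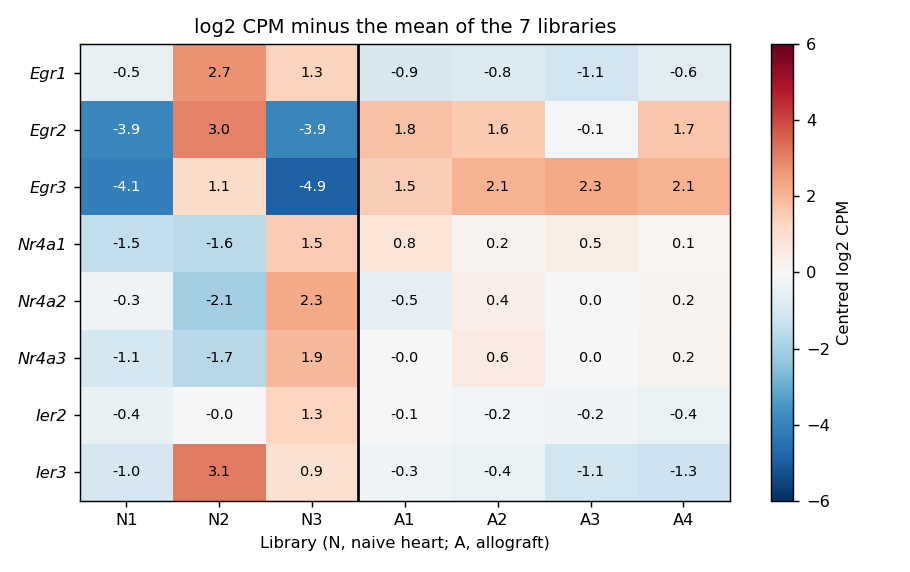
TMM-scaled log2 CPM of the 8 genes in each library minus the gene's mean over the 7 libraries (colour scale and printed values). N is naive and A is allograft. Egr1 and Ier3 are highest in N2, Egr2 and Egr3 are low in N1 and N3, and the NR4A genes and Ier2 are highest in N3.

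Among 4918 other genes at an average log2 CPM of at least 5, the nearest profile to Nr4a1 was that of Gadd45b, a stress-response gene (RMS 0.125), which was among the nearest 3 in 7 of 7 repeats that left out a library. Gadd45b stood at 289, 193 and 2065 CPM in N1, N2 and N3 and at 880 to 1141 CPM in the allografts. Dnajc5 (0.258) and Tyk2 (0.282) followed. The nearest to Nr4a2 were Tnik (0.241), Zfp36l1 (0.266) and Gm43361 (0.273), and to Nr4a3 Nfkbiz (0.178), Ahr (0.212) and Kdm6b (0.216). The nearest to Ier2 were Taf13 (0.0741) and the AP-1 subunit gene Jund (0.0983). Gadd45b, Zfp36l1, Nfkbiz and Jund are on the list of other immediate early genes used below, and the other neighbours named here are not.

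The nearest profile to Egr1 was that of Dram2 (RMS 0.247; nearest 3 in 5 of 7 repeats), then Ak3 (0.418) and Sdc4 (0.430), and the nearest to Ier3 were Msra (0.265), Akr7a5 (0.455) and Selenbp1 (0.484). Of these 6 genes, 5 were highest in N2, the library with the kidney tubule markers. Sdc4 was as high in N3 (188 CPM in both). The part of N2's makeup in these profiles was not tested. Egr2 and Egr3 lie under the average log2 CPM of at least 5 that the search required. Genes as low as these, with like zeros, were not searched, so whether Egr2 and Egr3 have close neighbours cannot be read here. Of the genes searched, the nearest to Egr3 were H2-Eb1 (1.21), Cd74 (1.45) and H2-Aa (1.47), which serve MHC class II antigen presentation. The nearest to Egr2 were H2-Eb1 (1.39), 2210016L21Rik (1.42) and Bcl2l1 (1.43). H2-Eb1 was at 12.8, 104 and 26.7 CPM in N1, N2 and N3 and at 299.7 to 413 CPM in the allografts. Markers of other cells also differed between libraries: the 8 B cell markers summed to 117, 6.40 and 0 CPM in N1, N2 and N3 and to 94.3 to 150 in the allografts, and the 11 measured myeloid markers to 2.49, 343 and 480 CPM and to 206 to 335. The 10 T cell markers summed to 348, 30.4 and 1085 CPM and to 1065 to 1263. For the 8 mast cell markers the sums were 328, 75.6 and 723 CPM in N1, N2 and N3 and 309 to 335 in the allografts. Their part in these profiles was not tested.

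The genes around these factors were taken from 5 lists of 115 genes, all measured and tested. None was past an adjusted p of 0.05 over all libraries (edgeR), against 0.0353% of genes. In 12 of the 115 every allograft lay above every naive library, against 12.5% of genes, and in 1 below, against 2.15%. The first list held 33 other immediate early genes, such as the AP-1 subunits Fos and Junb. On average 11 were higher and 22 lower in allografts, with a median log2 fold change of -0.37 against -0.01 over all genes tested. The median was -0.72 without N2 (all genes 0.23) and 0.69 without N3 (all genes 0.05), when 22 of the 33 were higher. N3 was the highest library for 25 of the 33 (75.8%), against 21.5% of all genes tested, a count chosen after the values were seen. Fos, for example, was at 2044, 3216 and 8410 CPM in N1, N2 and N3 and at 1917 to 2595 CPM in the allografts, and the NR4A genes and Ier2 shared this high level in N3. Dusp2, a nuclear phosphatase that switches ERK off, had the smallest p of the list, at 45.2 ± 36.0 CPM in naive hearts (SD, n = 3) and 138 ± 15.6 in allografts (SD, n = 4; log2 fold change 1.49, adjusted p = 0.341, edgeR). The fold change was 1.17 without N2 and 2.26 without N3.

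Of 21 genes of the ERK and serum response factor route that induces Egr1, 11 were higher and 10 lower on average (median log2 fold change 0.01). Mkl1, a coactivator of serum response factor, stood at 13.1, 5.76 and 6.74 CPM in N1, N2 and N3 and at 26.2, 39.9, 27.4 and 26.3 CPM in the allografts, without overlap (log2 fold change 1.65, adjusted p = 0.263, edgeR). Srf itself was at 23.4, 4.48 and 38.5 CPM in naive hearts and 8.91 to 15.4 CPM in allografts. The median was -0.04 without N2 and 0.18 without N3.

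Of 25 genes of the calcium, NFAT, MEF2 and CREB routes that induce Egr2, Egr3 and the NR4A genes, 14 were higher and 11 lower (median 0.19, -0.03 without N2 and 0.48 without N3). Calm2, a calmodulin gene, had the smallest p, at 797 ± 171 CPM in naive hearts (SD, n = 3) and 562 ± 104 in allografts (SD, n = 4; log2 fold change -0.71, adjusted p = 0.528, edgeR). Nfatc2, which encodes an NFAT factor of lymphocytes, was at 4.15, 7.85 and 25.7 CPM in N1, N2 and N3 and at 29.3 to 39.8 CPM in the allografts, without overlap (log2 fold change 1.23, adjusted p = 0.610, edgeR; 1.09 without N2 and 2.10 without N3).

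Of 16 genes for corepressors, partners and feedback inhibitors, 6 were higher and 10 lower (median -0.41, -0.55 without N2 and -0.06 without N3). Nab2, which encodes a corepressor of EGR proteins and is itself an EGR target, was at 1.00, 2.53 and 0 CPM in N1, N2 and N3 and at 11.8, 10.8, 5.02 and 9.96 CPM in the allografts, without overlap (log2 fold change 2.56, adjusted p = 0.716, edgeR; 4.20 without N2 and 2.00 without N3). Nab1, the other NAB gene of the list, had a log2 fold change of 0.20, -0.06 without N2 and 0.67 without N3. Rxra, which encodes a dimer partner of Nr4a1 and Nr4a2, was at 25.5, 9.36 and 22.9 CPM in naive hearts and 5.46 to 10.3 CPM in allografts. Sfn had the smallest p, at 52.6 ± 37.7 CPM in naive hearts (SD, n = 3) and 17.9 ± 1.99 in allografts (SD, n = 4; log2 fold change -1.94, adjusted p = 0.321, edgeR). The fold change was -0.84 without N2 and -2.23 without N3.

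Of 20 anergy and exhaustion genes tied to EGR and NR4A factors in T cells, 13 were higher and 7 lower on average, with a median of 0.59 over all libraries, 0.60 without N2 and 1.01 without N3. Havcr2, which encodes the inhibitory receptor TIM-3, was at 0.679, 1.34 and 0 CPM in N1, N2 and N3 and at 16.0, 16.5, 22.0 and 19.3 CPM in the allografts, without overlap (log2 fold change 4.37, adjusted p = 0.365, edgeR; 5.72 without N2 and 3.81 without N3). Dgka, a diacylglycerol kinase gene, was at 57.5, 8.95 and 71.3 CPM in naive hearts and 103 to 121 CPM in allografts. Without N2, 4 of the 115 genes were past the threshold (edgeR), against 3.10% of genes: Cyr61, Mef2c and Fasl rose and Rnf128, the anergy-linked ubiquitin ligase gene, fell by 1.09 on the log2 scale (adjusted p = 0.0433). Cyr61, Mef2c and Fasl had 0 counts in both N1 and N3, so their fitted fold changes are no bound, and in N2 they stood at 388, 18.6 and 3.91 CPM. Without N3, 0 of the 115 were past it (edgeR), against 0.0372% of genes. By DESeq2, 4 of the 115 were past it, against 6.40% of the 19118 genes with an adjusted p. Mkl1 and Havcr2 went upwards and Ppp1r15a and Rxra downwards. Some of the 115 got no p from DESeq2, among them Fosb, Klf4, Klf10, Nfkbiz, Gadd45b, Maff, Arc, Cyr61, Mef2c, Spry2, Spred1, Ctla4 and Id3. Egr4, Nab1, Nab2, Srf, Nfatc2, Dgka, Rxra and Fos were named for their roles after their values were seen.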

How the data were processed

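RNA was sequenced from 3 naive heart and 4 allograft libraries. Per the submitters' processing notes, reads went through FastQC 0.11.5, STAR 2.5.3a, StringTie 1.3.1c and DESeq2 1.16.1 on mm10 (GRCm38); the order, counting tool and strand setting are not given in the sources used here. The authors deposited 1 table of raw counts and 1 of FPKM values. The pooled hearts are the labels' biological replicates, and groups follow the titles. CPM (counts per 1000000) divides a count by its library's total, so each library's total (29107326 to 53044907) sets its precision. Levels, folds between libraries and overlaps used these plain totals. The log2 CPM of the SDs, profile distances and neighbour searches used totals scaled by TMM (factor 0.724 for N2, 1.02 to 1.07 elsewhere). Counts were tested with edgeR 4.0.16 (R 4.3.3; quasi-likelihood, TMM scaling, filterByExpr, Benjamini-Hochberg adjustment over 17015 genes, threshold 0.05), with limma 3.58.1 and DESeq2 1.42.0 as alternatives among 19. Exact zeros were kept. The script was tested on simulated data. FPKM served to compare levels between genes and, on a log2 scale, in alternative limma fits. The 8 members, the gene lists and the marker lists were chosen with earlier results of these data known. All 8 members are named; from each list, the gene with the smallest p or, where any passed, up to 3; and for each member, the 3 genes with the nearest log2 CPM profile (prior count 2), of which 1 is not reported here. Same-numbered naive and allograft libraries had correlations of their deviations from the group means of 0.0169, -0.0196 and 0.0360. These values show no pairing by number, but with 3 naive libraries, of which N2 went against its label, they cannot exclude it.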

Additional observations from a re-analysis of the deposited data

Results flagged for a closer look

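Among 32 values examined over the 4 allograft libraries (the 8 early response genes, list genes and marker sums), 3 had a single library far from the others by Dixon's criterion, where chance gives 1.6. Egr2 was at 0.6853 CPM in A3, against 2.31 to 2.59 CPM in the other 3 allografts. The serum response factor coactivator Mkl1 was at 39.9 CPM in A2, against 26.2 to 27.4 CPM. The myeloid marker sum was 334.8 CPM in A1, against 206 to 224 CPM.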

How the results depend on the processing

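Over 19 alternatives, Egr1 stayed lower and Egr3 higher in allografts in all of them; of the fold changes of 13 named genes (the 8 and 5 list genes), 28 reversed, 1 of them now past the threshold, 10 became called with the same sign and 209 kept sign and side. The count of genes past the threshold was 1224 by DESeq2, 1 by limma voom, 76 and 201 by limma on log2(FPKM + 1) and log2(FPKM + 0.1), 2737 without N2 and N3, and 0 to 560 when single libraries were left out (107 without N1, 560 without N2, 7 without N3, and 0 by edgeR without any 1 allograft, with 848 to 1074 at unadjusted p under 0.05). Members past it were 1 by DESeq2, 3 without N2 and N3, and 0 to 1 with single libraries left out; list genes were 4, 32 and 0 to 4, and 2 and 1 on the FPKM scales. Nothing is read from the 3 and 32 of the fit without N2 and N3, where N1 alone stood for naive hearts. Of all genes tested, 13.5% were past the threshold in that fit and 3.10% without N2. By DESeq2, 6.40% of genes with an adjusted p were past it. On the FPKM scales, 76 and 201 of the 17015 genes tested were. The fit with a replicate block called 0 genes (252 at unadjusted p under 0.05), with log2 fold changes of 5.92 for Egr2, 6.23 for Egr3, 1.07 for Nr4a1 and 0.55 for Nr4a3. The log2 fold change of Egr2 was 0.0297 with upper quartile scaling, 0.55 with total counts, 0.0363 with no filter, 5.36 by voom, 0.22 and 1.29 on the FPKM scales, 9.33 without N2 and N3, and -0.56 to 9.33 with single libraries left out. In the same order (voom, FPKM + 1, FPKM + 0.1, without N2 and N3, single libraries left out), Nr4a2 gave 0.26, 0.0876, 0.18, 0.31 and -1.49 to 0.96, and Nr4a3 0.80, 0.38, 0.59, 1.25 and -0.90 to 1.54. Nr4a1 was at -0.0019 by DESeq2, 1.18 by voom, 1.07 on both FPKM scales, 1.87 without N2 and N3, and -0.29 to 1.96 with single libraries left out; Ier2 was at 0.21 and Ier3 at 0.29 without N2 and N3, and Ier2 at -0.97 to 0.0314 with single libraries left out. The median of all genes shifted by -0.19 with DESeq2 size factors, 0.19 with total counts, 0.67 by voom and 0.53 with FPKM + 0.1. The cause was not tested. DESeq2 gave no p for Egr2, Nr4a1 and Nr4a3, which are counted here as not past the threshold.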
